A study of Homo sapiens with 4 samples.

Results

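The fibroblast growth factor (FGF) genes described here are 10 genes, FGF2, FGF9, FGF11, FGF12, FGF13, FGF14, FGFR1, FGFR2, FGFR3 and FGFR4, out of 60617 gene entries measured by RNA-seq. They were chosen by symbol on the same count contrast that is reported below, with its results known, so their changes are given as a description and without p-values. The libraries came from SKNMC, an established human Ewing sarcoma line. Cells received CBL0137 at 1 µM for 24 h (n = 2) or its vehicle DMSO for 24 h (n = 2). CBL0137 is a DNA-binding curaxin compound that leaves the histone chaperone FACT trapped on chromatin, and the series is about targeting FACT in this tumour. All 4 libraries share 1 cell line, and nothing in the labels says that replicates came from separate cultures, so the spread between them may be technical.

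FGFs are a family of signalling proteins. Secreted FGFs bind, together with heparan sulfate, the receptor tyrosine kinases FGFR1 to FGFR4 and signal through the RAS-MAPK and PI3K pathways, which switch on their own inhibitors such as the Sprouty proteins. FGF11, FGF12, FGF13 and FGF14 form a branch of their own, the FGF homologous factors (FHFs): they lack a signal for classical secretion, stay mostly inside the cell and are best known in neurons, where they bind the tail of voltage-gated sodium channels. Ewing sarcoma is driven by a fusion protein, most often EWSR1-FLI1, whose ETS domain recognises the core letters GGAA.

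The gene counts summed to 20767817 and 21061892 in the CBL0137 libraries and 20086664 and 19625517 in the DMSO libraries. All 7 Ewing sarcoma markers examined, CD99 and NKX2-2 among them, had reads in both groups. Their summed level was 768 to 831 CPM, counts scaled to the library total, with CBL0137 and 1322 to 1324 CPM with DMSO. By gene, 4 were called lower (CD99, NR0B1, PRKCB and BCL11B) and 3 were not called. NKX2-2 averaged 38.7 CPM with CBL0137 and 33.1 CPM with DMSO. LIPI averaged 55.4 CPM with CBL0137 and 43.4 CPM with DMSO. STEAP1 averaged 120 CPM with CBL0137 and 142 CPM with DMSO. The sums of markers of other cell types differed as well. The 4 fibroblast markers summed to 572 to 603 CPM with CBL0137 and 314 to 317 CPM with DMSO. Within that sum, the 4 genes went both ways. COL1A1, which encodes a collagen chain, averaged 456 CPM with CBL0137 and 123 CPM with DMSO, and PDGFRA was called higher too. LUM was called lower, at 20.3 CPM with CBL0137 and 35.3 CPM with DMSO, and DCN was not called, at 109 CPM with CBL0137 and 157 CPM with DMSO. The 5 blood markers summed to 108 to 125 CPM with CBL0137 and 163 CPM with DMSO, and HBB was at 0. Nearly all of that sum was PTPRC, which was not called. The 4 epithelial markers summed to 7.83 to 8.85 CPM with CBL0137 and 2.64 to 3.12 CPM with DMSO. Most of this was EPCAM, called higher, and the other 3 stayed under 1 CPM. The 3 matched endothelial markers summed to 4.05 to 4.79 CPM with CBL0137 and 2.42 to 2.80 CPM with DMSO. CDH5 was called higher, KDR was not called, and VWF had 0 and 4 reads with CBL0137 and 9 and 3 with DMSO. The part of these markers in the results below was not tested. In bulk RNA, fewer cells of a type and less RNA per cell cannot be told apart.

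FGF12 was the member that changed most by counts, which were 15.8-fold lower with CBL0137 than with DMSO. FGF11, of the same branch, was 3.17-fold higher, and FGFR1, the most abundant receptor gene by CPM, was 1.54-fold higher. FGF13 and FGF14 were lower, at few reads. FGF2, FGFR3 and FGFR4 did not pass the limits, FGF9 gave a few reads with CBL0137 only, and FGFR2 gave none in any library. A gene was called changed when its Benjamini-Hochberg adjusted p in the quasi-likelihood test of edgeR, over all 17374 genes tested, was under 0.05 and its fold was above 1.5, which is 0.585 on the log2 scale. Of the 10 members, 8 passed the filter on low counts, of which 2 were called higher, 3 lower and 3 were not called. Over all tested genes 33.4% were called, 18.2% higher (3166 genes) and 15.1% lower (2632 genes), and nothing is read from the members' count against these shares because the members were chosen on this contrast. Scaling by library size alone, which moves the median gene by 0.16 on the log2 scale, gave 4138 higher and 1877 lower. A gene could pass the filter through 1 group alone, as FGF14 did through DMSO. The median log2 fold change was -0.37 over the 8 tested members and 0.01 over all tested genes.

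**Figure D1:**
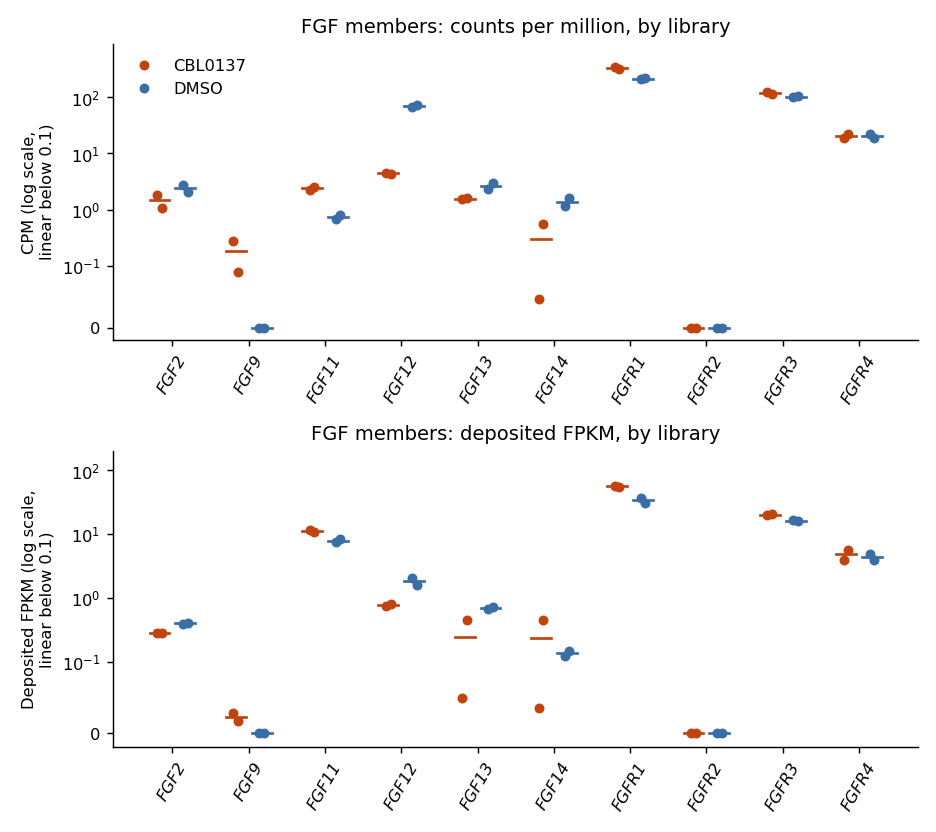
Levels of the 10 FGF members in each library, as CPM from the deposited counts (top) and as deposited FPKM (bottom), on log axes that are linear below 0.1. Each point is a library and each line a group mean (n = 2). FGF12 stands at 4.51 and 4.29 CPM with CBL0137 against 67.0 and 72.3 CPM with DMSO, and FGFR2 is at 0 in all libraries.

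By counts, the widest differences were in FHF genes, although FGF13 was level with FGF2. FGF12 (ENSG00000114279; GRCh37 chromosome 3, 191857179 to 192485553, minus strand) encodes an FHF known from brain and heart. It had 99 and 95 reads in the CBL0137 libraries and 1267 and 1346 reads in the DMSO libraries. Both CBL0137 libraries lay far below both DMSO libraries, at 4.40 ± 0.152 CPM with CBL0137 and 69.6 ± 3.77 CPM with DMSO (SD, n = 2 each). Its log2 fold change was -3.98 (SE 0.10), rank 32 from the lowest among 17374 tested genes. None of its 11469 exon bases is shared with another counted gene, and the counted antisense genes inside its introns had at most 1 read in any library. It was called lower under all 13 other settings that kept the fold limit of 1.5, with a log2 fold change between -4.06 and -0.66.

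The value nearest to 0 came from FPKM, which corrects reads for gene length and depth and which the authors also deposited. FGF12 had 0.767 and 0.825 FPKM with CBL0137 and 2.05 and 1.63 FPKM with DMSO. The direction was that of the counts, but the log2 ratio of mean FPKM was -1.21. The count log2 fold change was 2.77 log2 units below the FPKM ratio, while the median of this difference over all tested genes was -0.10, and 0.551% of genes lay farther from that median. The size of the difference therefore depends on the deposited unit, and where the 2 units part was not tested.

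FHF genes start from alternative first exons that give proteins with different amino ends, and the gene-level counts do not separate them. The sequences upstream of the annotated starts are shown for FGF12 and FGF11, the members with the lowest and the highest log2 fold change. They are the 250 bases before a start in RefSeq (GRCh38.p14), read 5′ to 3′ on the gene's strand, with GGAA or its reverse complement TTCC in capitals. The RefSeq table held 20 such windows for 8 of the 10 members. The windows before the 2 starts of FGF12 span chr3:192727542-192727791 (minus strand, first) and chr3:192409598-192409847 (minus strand, second), and the window before the first of the 3 starts of FGF11 spans chr17:7438048-7438297 (plus strand).
FGF12 first start: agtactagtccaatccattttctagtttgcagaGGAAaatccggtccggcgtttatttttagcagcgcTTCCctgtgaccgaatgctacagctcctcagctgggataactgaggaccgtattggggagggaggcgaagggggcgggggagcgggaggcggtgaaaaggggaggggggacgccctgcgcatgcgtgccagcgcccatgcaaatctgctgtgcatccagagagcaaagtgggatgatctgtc
FGF12 second start: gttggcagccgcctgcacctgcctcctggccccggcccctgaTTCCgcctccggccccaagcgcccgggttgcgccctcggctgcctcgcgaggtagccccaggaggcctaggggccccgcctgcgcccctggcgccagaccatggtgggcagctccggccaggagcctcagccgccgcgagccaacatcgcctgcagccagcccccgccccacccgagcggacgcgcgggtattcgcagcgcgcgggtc
FGF11 first start: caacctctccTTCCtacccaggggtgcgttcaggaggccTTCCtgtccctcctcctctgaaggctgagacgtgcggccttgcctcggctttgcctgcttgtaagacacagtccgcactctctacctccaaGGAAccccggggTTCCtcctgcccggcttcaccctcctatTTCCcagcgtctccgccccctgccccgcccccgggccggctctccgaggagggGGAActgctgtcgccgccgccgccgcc
The GGAA core, counted on both strands, occurred 2 times before the first and 1 time before the second FGF12 start, and 6 times before the first FGF11 start. The other FGF11 windows, not printed, held it 2 times and 1 time. Of 35116 promoter windows of this length, 92.7% held it at least once, with a median of 3, so a match here is a description and not a binding site. The letters CG occurred 14 and 28 times in the FGF12 windows and 18 times in the printed FGF11 window (5 and 16 times in the others), against a median of 11 over all windows.

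FGF11 (ENSG00000161958; GRCh37 chromosome 17, 7341592 to 7348256, plus strand), an FHF of the nervous system, stood higher with CBL0137. It had 48 and 57 reads in the CBL0137 libraries and 13 and 15 reads in the DMSO libraries. The groups did not overlap, at 2.38 ± 0.275 CPM with CBL0137 and 0.747 ± 0.0839 CPM with DMSO (SD, n = 2 each), a log2 fold change of 1.67 (SE 0.37). Its FPKM values were 11.7 and 11.02 with CBL0137 and 7.57 and 8.42 with DMSO, a log2 ratio of 0.50, under the fold limit. By FPKM it was thus the most abundant FHF in every library, while by counts per kilobase of exon it came after FGF12 in the DMSO libraries. Of its 5080 exon bases, 4169 (82.1%) are also annotated to another gene on the same strand, ENSG00000272884, which had 0 reads. The counting set reads in overlapping genes apart, so these 0 reads do not show that the shared bases were silent. For FGF11 the log2 ratio of counts per kilobase to FPKM was -4.52 with CBL0137 and -5.85 with DMSO. The medians over all tested genes were 0.062 and 0.0040. The part of the shared bases in this was not tested. An antisense gene, ENSG00000263301, shares 69 exon bases with FGF11. It was itself called higher, at a log2 change of 0.74 (SE 0.25, edgeR adjusted p = 0.010), and its part in the FGF11 reads was not tested.

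FGF13 and FGF14, FHFs that also act on neuronal sodium channels, were lower at the edge of detection. FGF13 (ENSG00000129682) had 34 and 35 reads with CBL0137 and 44 and 55 reads with DMSO. The groups did not overlap, and the log2 fold change was -0.75 (SE 0.31). It was no longer called with library size alone (-0.59), with DESeq2 (-0.77), with FPKM, without the low-count filter, or without CBL0137 replicate 1, CBL0137 replicate 2 or DMSO replicate 2. Its FPKM values were 0.0503 and 0.451 with CBL0137 and 0.674 and 0.737 with DMSO. FGF14 (ENSG00000102466) had 1 and 12 reads with CBL0137 and 22 and 30 reads with DMSO, a log2 fold change of -2.21 (SE 0.56). Both CBL0137 libraries lay below both DMSO libraries, but they differed widely from each other, and the log2 fold change was -1.35 and not called without CBL0137 replicate 1 and -4.75 without CBL0137 replicate 2. Without the low-count filter it was not called either (-2.23). By FPKM the direction turned, with 0.0356 and 0.452 FPKM with CBL0137 and 0.124 and 0.152 FPKM with DMSO. FGF14 shares 32.8% of its exon bases with other counted genes, most of them with ITGBL1 on the opposite strand, which had 5 and 8 reads with CBL0137 and 18 and 6 reads with DMSO.

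Summed over the 4 FHF genes, there were 182 and 199 reads in the CBL0137 libraries and 1346 and 1446 reads in the DMSO libraries. FGF12 made up 54.4% and 47.7% of these reads with CBL0137 and 94.1% and 93.1% with DMSO. By FPKM the sums did not fall, at 12.5 and 12.7 with CBL0137 and 10.4 and 10.9 with DMSO, and FGF11 held 93.2% and 86.4% of the FPKM sum with CBL0137 and 72.7% and 76.9% with DMSO. The lower total of the family is thus a statement about counts, in which FGF12 weighs most.

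**Figure D2:**
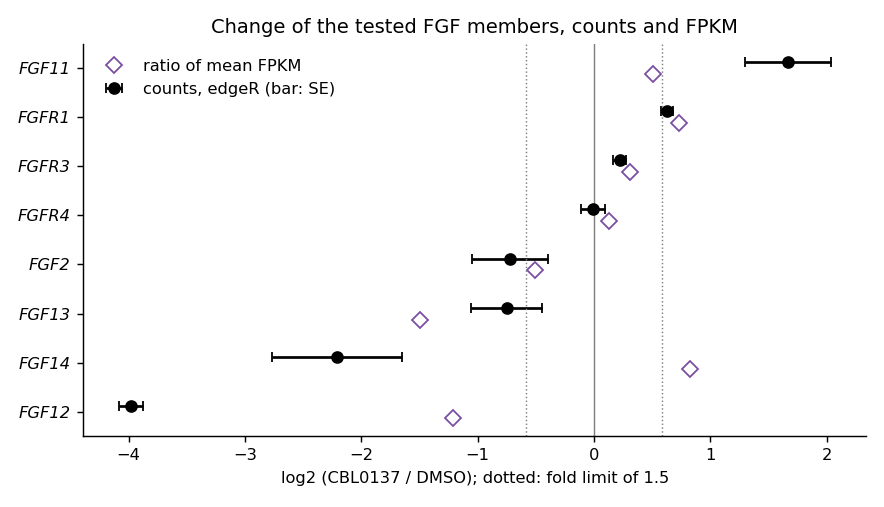
Log2 change of the 8 tested members, CBL0137 over DMSO, from counts (filled circles, with the SE of the edgeR fit) and as the ratio of mean deposited FPKM (diamonds). Dotted lines mark a fold of 1.5. FGF12 is at -3.98 by counts and -1.21 by FPKM, FGF14 lies on opposite sides of 0, and the 3 receptors differ little between the units.

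Of the secreted ligands, FGF2 and FGF9 were at low levels in both groups. FGF2 (ENSG00000138685; GRCh37 chromosome 4, 123747837 to 123819391, plus strand), a broadly acting growth factor for fibroblasts and endothelium, had 40 and 24 reads with CBL0137 and 51 and 39 reads with DMSO. In CPM these were 1.82 and 1.08 with CBL0137 and 2.70 and 2.10 with DMSO. The groups did not overlap, but the log2 fold change of -0.72 (SE 0.33) was not called. It was called without CBL0137 replicate 1 (-1.14) and without DMSO replicate 2 (-0.91). FGF2 shares 804 of its 6801 exon bases with NUDT6 on the opposite strand, whose log2 change was 0.56 (SE 0.21, edgeR adjusted p = 0.017) and not called. FGF9 (ENSG00000102678), a ligand of glia and mesenchyme, had 6 and 2 reads with CBL0137 and 0 reads in both DMSO libraries. It was not tested. Against a limit of 3 reads over the DMSO group it was at least 2.27-fold higher. This makes no allowance for counting error in the CBL0137 reads.

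FGFR1 and FGFR3 carried most of the receptor transcripts. FGFR1 (ENSG00000077782; GRCh37 chromosome 8, 38257733 to 38326352, minus strand), a receptor of mesenchymal and neural tissue, had 7640 and 7095 reads with CBL0137 and 4060 and 4065 reads with DMSO. The groups were far apart relative to their spread, at 334 ± 19.3 CPM with CBL0137 and 216.5 ± 2.66 CPM with DMSO (SD, n = 2 each). Its log2 fold change was 0.63 (SE 0.05), just past the fold limit, and was 0.56 and not called without CBL0137 replicate 1. FPKM gave 57.9 and 55.4 with CBL0137 and 37.4 and 30.8 with DMSO, a log2 ratio of 0.73. It shares 3.05% of its exon bases with other counted genes. FGFR1 lay above 95.4% of tested genes by FPKM with CBL0137 and above 90.7% with DMSO.

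FGFR3 (ENSG00000068078; GRCh37 chromosome 4, 1795020 to 1810599, plus strand), best known for its role in bone growth, had 2728 and 2599 reads with CBL0137 and 1926 and 1964 reads with DMSO. In CPM the groups stood apart, at 121 ± 4.80 with CBL0137 and 104 ± 2.61 with DMSO (SD, n = 2 each). The log2 fold change of 0.22 (SE 0.06) was under the fold limit, and FGFR3 was called in none of the 13 other settings that kept this limit. With no fold limit it was called higher. FGFR4 (ENSG00000160867; GRCh37 chromosome 5, 176513906 to 176525145, plus strand), the receptor of FGF19 in liver, had 420 and 487 reads with CBL0137 and 430 and 347 reads with DMSO. Its groups overlapped, at 19.1 and 22.0 CPM with CBL0137 and 22.7 and 18.6 CPM with DMSO. The log2 fold change was -0.01 (SE 0.11) and took the other sign with library size alone (0.15) and upper-quartile factors (0.06), so it has no direction here. FGFR2 (ENSG00000066468), which acts mainly in epithelia, had 0 reads in every library, which allows up to 0.0680 CPM with CBL0137 and 0.0799 CPM with DMSO.

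Between receptors, levels can be compared only per length, and the 2 ways of doing so differ for FGFR1 and FGFR3. By FPKM the order was FGFR1, FGFR3, FGFR4 in all 4 libraries, and FGFR1 held 70.3% and 67.9% of the receptor FPKM with CBL0137 and 63.5% and 60.2% with DMSO. FGFR3 held 24.7% and 25.1% with CBL0137 and 28.2% and 32.0% with DMSO, and FGFR4 4.91% and 6.98% with CBL0137 and 8.34% and 7.79% with DMSO. Per kilobase of all annotated exons, FGFR3 came first with 24.9 CPM per kb with CBL0137 and 21.4 with DMSO, before FGFR1 with 19.4 with CBL0137 and 12.6 with DMSO, and FGFR4 with 4.27 with CBL0137 and 4.30 with DMSO. FGFR1 has 17201 annotated exon bases and FGFR3 has 4848. FGFR4 was the lowest of the 3 detected receptors on both scales.

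The other FGF ligand genes were mostly silent or near the limit of detection. Of 16 such genes, 3 (FGF16, FGF20 and FGF23) had no read and 6 were tested. Of those 6, 4 rose and 2 fell in the edgeR test, with a median log2 fold change of 1.10. FGF3, FGF5 and FGF22 passed the filter through CBL0137 alone and FGF21 through DMSO alone, each the group where it was higher. Their calls and the median are therefore partly set by the filter, and no adjusted p is given for them. Nothing is read from the counts of this list against the shares over all genes. DESeq2 called 1 higher and 2 lower, and the stricter low-count filter gave 2 higher and 1 lower. Over all tested genes 18.2% were called higher and 15.1% lower. FGF19, an endocrine FGF of the gut that acts on liver, was the most abundant, with 322 and 312 reads with CBL0137 and 163 reads in each DMSO library, a log2 change of 0.73 (SE 0.13, edgeR adjusted p = 5.6e-06). FGF3 had 22 and 17 reads with CBL0137 and 5 and 4 reads with DMSO (1.86, SE 0.59). These genes have roles in the embryo, FGF3 for example in the inner ear. FGF5, which limits hair growth, had 35 and 20 reads with CBL0137 and 6 reads in each DMSO library (1.94, SE 0.53). FGF22, which acts at synapses, had 33 and 36 reads with CBL0137 and 7 and 14 reads with DMSO (1.47, SE 0.45). FGF3 was not called with DESeq2 (1.87), with log2(FPKM + 1) (0.26), without CBL0137 replicate 1 (1.65) or without DMSO replicate 2 (1.70). Neither FGF5 nor FGF22 was called with DESeq2 or with FPKM, FGF5 was not called without CBL0137 replicate 1 (1.48), and FGF22 was not called without DMSO replicate 1 (1.03).

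FGF10 and FGF21 fell. FGF10, a mesenchymal ligand needed for lung and limb buds, had 18 and 14 reads with CBL0137 and 43 and 35 reads with DMSO, a log2 change of -1.51 (SE 0.39, edgeR adjusted p = 0.00093). FGF21, an endocrine FGF of fasting and stress, had 0 reads in both CBL0137 libraries and 12 and 10 reads with DMSO. It was at least 8.62-fold lower against a limit of 3 reads over the group. Neither FGF10 nor FGF21 was called with log2(FPKM + 1). With the stricter low-count filter, or with either DMSO replicate left out, FGF10 and FGF21 did not both keep their call. FGF4 and FGF8, embryonic ligands that were not tested, had reads with CBL0137 only, 11 and 3 for FGF4 and 5 in each library for FGF8. They were at least 3.97-fold and at least 2.84-fold higher, with no allowance for counting error in the CBL0137 reads. FGF17 had 4 reads in each CBL0137 library and 0 and 1 reads with DMSO, FGF18 had 5 and 8 with CBL0137 and 3 and 2 with DMSO, and FGF1 had 1 and 0 with CBL0137 and 4 and 3 with DMSO. FGF6 and FGF7 had 1 read each, both in CBL0137 replicate 1. FGF3, FGF5, FGF21 and FGF22 passed the filter through 1 group alone, so they had to differ between the groups in order to be tested.

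**Figure D3:**
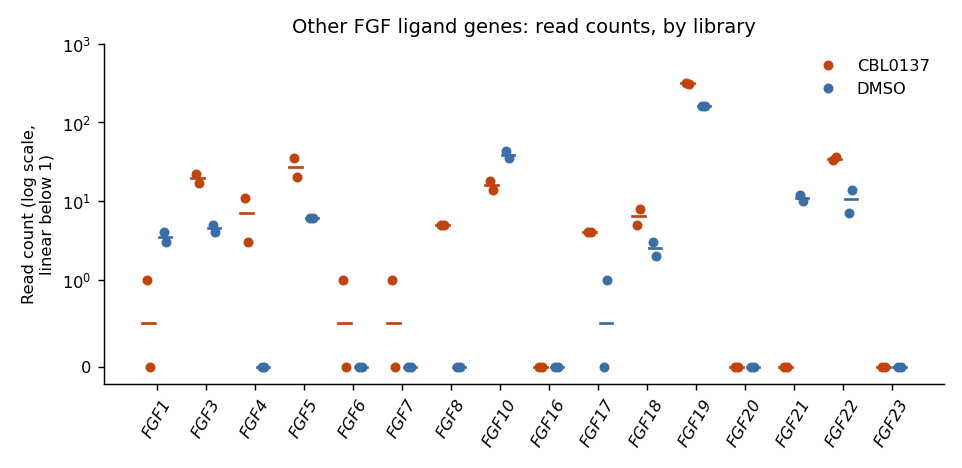
Read counts of the 16 other FGF ligand genes in each library, on a log axis that is linear below 1. Points are libraries and lines are group means (n = 2). FGF19 is the highest, with 322 and 312 reads with CBL0137 and 163 in each DMSO library, while FGF10 and FGF21 are lower with CBL0137.

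Secreted FGFs need co-receptors and binding proteins, and 3 of the 16 tested genes of that list rose while 5 fell, with a median log2 fold change of -0.36. Over all tested genes 18.2% were called higher and 15.1% lower, with a median of 0.01, and the counts of this and the following lists stand beside those shares. GPC6, a glypican that carries heparan sulfate on the cell surface, fell to 29.8 and 25.8 CPM with CBL0137, against 89.2 and 92.5 CPM with DMSO (-1.71, SE 0.07, edgeR adjusted p = 4.1e-23). FLRT2, a transmembrane protein of the family that binds FGFRs, fell to 144 and 145 CPM with CBL0137, against 305 and 310.4 CPM with DMSO (-1.09, SE 0.05, adjusted p = 2.6e-21), but was not called with FPKM (-0.39 and -0.45). FGFRL1, a receptor relative without a kinase domain and named here after its values were seen, fell by 0.75 (SE 0.08, adjusted p = 1.1e-10). Those 3 genes encode cell-surface proteins. SDC1, a syndecan with heparan sulfate chains, rose to 9.88 and 7.72 CPM with CBL0137, against 0.634 and 1.29 CPM with DMSO (3.19, SE 0.26, adjusted p = 4.1e-14). ANOS1, a matrix protein that binds FGFR1, rose to 1.73 and 1.54 CPM with CBL0137, against 0.106 and 0.107 CPM with DMSO (3.86, SE 0.61). With 2 reads in each DMSO library, ANOS1 passed the filter through CBL0137 alone. It thus had to differ in order to be tested, and no adjusted p is given for it. ANOS1 was not called with log2(FPKM + 1) (0.18).

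Among 21 tested genes that build or trim heparan sulfate, 1 rose and 5 fell, with a median of -0.27. SULF2, which removes sulfate groups from heparan sulfate outside the cell, fell to 9.69 and 8.99 CPM with CBL0137, against 44.2 and 43.4 CPM with DMSO (-2.23, SE 0.10, edgeR adjusted p = 1.4e-22). NDST4, an enzyme that adds the first sulfates, fell by 0.91 (SE 0.06, adjusted p = 5.5e-16). The rise was in EXT2, a subunit of the enzyme that extends the chain (0.71, SE 0.06, adjusted p = 2.4e-14). Most of the list, 15 genes, was not called.

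Transcripts of the relay from receptor to nucleus mostly stayed under the fold limit. Of 27 tested genes, 1 rose, 1 fell and 25 were not called, with a median of -0.10. With no fold limit, 4 were called higher and 11 lower. SHC1, an adaptor that links receptors to RAS, rose by 0.64 on the log2 scale (SE 0.06, edgeR adjusted p = 2.7e-13), and PIK3R1, the regulatory subunit of PI3K, fell by 0.66 (SE 0.05, adjusted p = 4.6e-14). PIK3R1 was not called with library size alone (-0.50) or with FPKM (-0.52 and -0.55). PTPN11, the phosphatase SHP2, had a log2 fold change of -0.42 (SE 0.05), under the fold limit. Of 17 tested feedback and output genes, 4 rose and 5 fell, with a median of 0.10. CCND1, which encodes cyclin D1, fell to 527 and 574 CPM with CBL0137, against 1158 and 1144 CPM with DMSO (-1.06, SE 0.05, adjusted p = 1.6e-20). MYC fell by 0.74 (SE 0.05, adjusted p = 3.3e-16), and SPRED2, an inhibitor of the RAS-MAPK pathway, fell by 0.67 (SE 0.07, adjusted p = 4.9e-11) but was not called with library size alone (-0.51) or with FPKM (-0.42 and -0.47). Those 3 genes were named for the smallest p of the list. The 4 genes that rose, named here after their values were seen, stood at lower levels. They were EGR1 (1.62, SE 0.43), SPRED3 (1.25, SE 0.28), DUSP5 (1.00, SE 0.32) and the Sprouty gene SPRY3 (0.74, SE 0.16). Another Sprouty gene, SPRY2, fell (-1.56, SE 0.35). The list thus moved in both directions. CCND1 shares 10.4% of its exon bases, SHC1 15.2% and MYC 3.18% with other counted genes.

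Splicing regulators choose between receptor isoforms, among them the IIIb and IIIc forms of FGFR2. Of 8 tested, none rose, 1 fell and 7 were not called, with a median of -0.18. The one that fell was ESRP1, an epithelial splicing regulator that favours the IIIb form, at 17.3 and 21.0 CPM with CBL0137, against 129 and 108 CPM with DMSO (-2.63, SE 0.08, edgeR adjusted p = 1.4e-27). HNRNPA1 and PTBP2 had log2 fold changes of -0.38 and -0.51 and were under the fold limit. FGFR2 itself had 0 reads in every library. Gene-level counts hold no isoform of the other receptors, so no use of exons is reported.

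Of 10 tested sodium channel subunit genes, partners of the FHFs, 4 rose, 2 fell and 4 were not called, with a median of 0.41. SCN9A, a channel of sensory neurons, rose to 39.1 and 40.3 CPM with CBL0137, against 12.4 and 13.6 CPM with DMSO (1.61, SE 0.10, edgeR adjusted p = 2.2e-18). SCN11A, a channel of pain neurons, rose by 2.44 on the log2 scale (SE 0.61). SCN2A, a channel of brain neurons, fell to 2.96 and 4.47 CPM with CBL0137, against 16.3 and 14.7 CPM with DMSO (-2.06, SE 0.16, adjusted p = 2.4e-14). SCN4A, the muscle channel, fell to 0.137 and 0.181 CPM with CBL0137, against 4.44 and 4.24 CPM with DMSO (-4.72, SE 0.43). The sodium channel genes thus moved in both directions. SCN11A passed the filter through CBL0137 alone and SCN4A through DMSO alone, so each had to differ in order to be tested. No adjusted p is given for either. SCN11A was not called with FPKM (0.08 and 0.59), nor SCN4A with log2(FPKM + 1) (-0.55). SCN9A shares 11.4% of its exon bases with other counted genes. Of 5 tested genes for other FHF partners, 3 were not called. MAPK8IP2, a JNK scaffold that binds FHFs, rose by 0.81 (SE 0.22, adjusted p = 0.0013), and the related scaffold MAPK8IP1 fell by 1.30 (SE 0.22, adjusted p = 2.7e-06). MAPK8IP2 was not called with DESeq2 (0.79), and neither scaffold with log2(FPKM + 1).

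**Figure D4:**
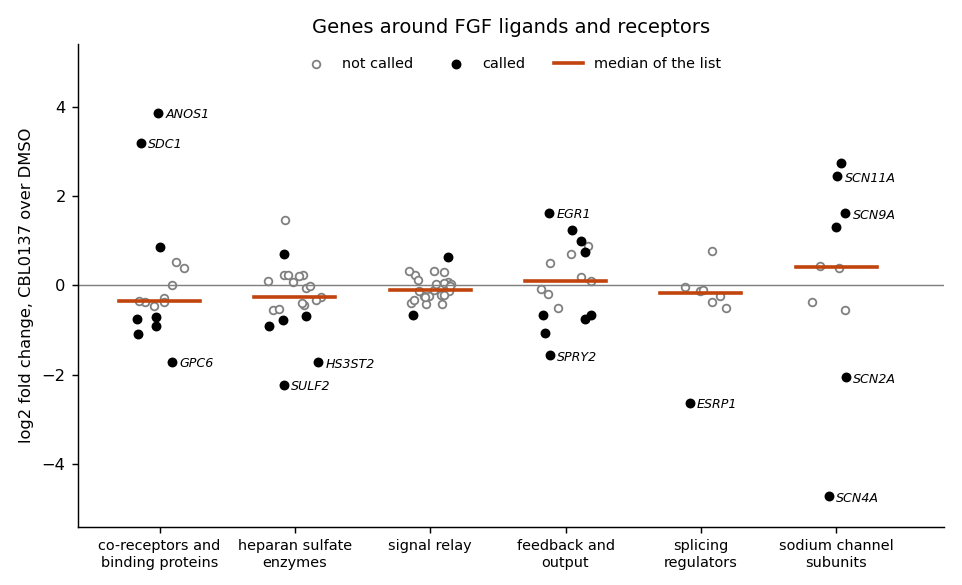
Log2 fold change, CBL0137 over DMSO, of the tested genes in 6 lists around FGF ligands and receptors. Filled points are called genes (edgeR adjusted p under 0.05 and fold above 1.5), open points are not called, and bars are list medians. The relay list lies close to 0, with 25 of 27 genes not called, while, of the labelled genes, SCN4A, ESRP1, SULF2 and SCN2A lie below -2 and ANOS1, SDC1 and SCN11A above 2.

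The genes whose pattern over the 4 libraries was most like that of FGF12 were MROH2A, SCN4A and GRIA2, at distances of 0.222, 0.304 and 0.327 on the centred log2 CPM scale among 13230 genes. MROH2A had 2.96 and 3.43 CPM with CBL0137 and 53.1 and 56.1 CPM with DMSO. Those most like FGF11 were S1PR3, APELA and ABTB1, at distances of 0.0554, 0.103 and 0.137 among 13231 genes. S1PR3 had 11.6 and 13.6 CPM with CBL0137 and 3.96 and 4.35 CPM with DMSO. With 4 libraries in 2 groups, this likeness is mainly a likeness in the size of the change.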

How the data were processed

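RNA-seq was analysed from SKNMC cells given CBL0137 (n = 2) or DMSO (n = 2), with groups read from the sample titles. The authors deposited raw read counts per gene, obtained with HTSeq 0.11.1 after trimming with Trim Galore and HISAT2 alignment to hg19 (GRCh37), per the series' design text. The authors also deposited FPKM values, computed from reads, gene length and depth. The submitters' processing notes name DESeq2 1.26.0 too, and mm10 besides hg19 with no role stated. The annotation release, the strand setting and the FPKM tool were not given in the sources used here. FPKM does not follow from the counts by rescaling, since 5103 genes without any count had FPKM above 0.

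The 6 entries that name no gene stayed out of library sizes and tests. Relative to all counted reads, 10.3% and 10.2% with CBL0137 and 8.52% and 8.82% with DMSO lay in no annotated gene, and 8.75% and 8.78% with CBL0137 and 9.34% and 9.27% with DMSO in overlapping genes. The test was the quasi-likelihood test in edgeR 4.0.16 and R 4.3.3 (TMM factors 1.06 and 1.05 with CBL0137, 0.943 and 0.950 with DMSO; filterByExpr), also tested on simulated data. CPM uses TMM library sizes and is a relative level among the sequenced RNA, not an absolute amount. Gene positions came from GENCODE mapped to GRCh37. Libraries within each group differed beyond sampling noise (chi-square per degree of freedom 2.68 with CBL0137 and 2.95 with DMSO) and were kept as separate samples. A limit of 3 reads over a group stood in for 0 reads. It covers counting error of the group at 0 only, not that of the other group.

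The members and gene lists were chosen with earlier results of these data known, so members carry no p-value and lists no set test. Named genes are every member, every other FGF ligand with a read, the 3 genes with the smallest p in each list plus called genes changed by at least 2 on the log2 scale, counted genes overlapping a member where their values bear on it, and the 3 genes most like the extreme members. The values of 1 gene that this rule names are not reported here. Alternatives were other scalings, filters, fold limits, DESeq2 1.42.0, limma 3.58.1 on log2(FPKM + 1) and log2(FPKM + 0.1), a replicate block and leaving out each replicate.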

Additional observations from a re-analysis of the deposited data

How the results depend on the processing

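FGF12 was called lower under all 13 alternatives that kept the fold limit of 1.5, and FGFR3 and FGFR4 under none of these. The alternatives that change no more than the scaling left the count of called members at 2 higher, against 2 in the edgeR fit, and gave 2 or 3 lower. With log2(FPKM + 1), 1860 genes were higher and 1363 lower over all genes, 1 and 1 among the members, and 6 and 11 in the pathway lists. With log2(FPKM + 0.1) the members gave 1 and 1. A fold limit of 2 gave 1988 higher and 1218 lower over all genes, 1 higher among the members, and 11 and 12 in the lists. No fold limit gave 5347 and 5375 over all genes, 3 and 3 among the members (FGFR3 being the third higher) and 29 and 48 in the lists. Without the low-count filter 1 member was lower. Leaving out each replicate gave 2699 to 2974 higher and 2418 to 2655 lower over all genes, 1 to 2 higher and 2 to 3 lower members, and 15 to 18 higher and 21 to 23 lower list genes, against 18 and 22.

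FGF14 changed sign with FPKM (0.11 with a pseudocount of 1, 0.20 with 0.1). FGFR4, near 0, changed sign with library size alone (0.15), upper-quartile factors (0.058), the stricter filter (0.0051) and FPKM (0.10 and 0.12), and leaving out each replicate gave -0.16 to 0.12. LTO1 changed sign with library size alone (0.10), upper-quartile factors (0.0080) and gave -0.15 to 0.0015 with each replicate left out. The cause was not tested. With 1 library left in a group, that library is assumed to vary like the others.

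The replicate number as a block gave 3129 higher and 2612 lower genes and changed no member's call. Same-numbered libraries deviated together with a correlation of 0.0196 in only 2 pairs, so the numbers are not taken to pair the samples. With 2 libraries against 2, an exact test of 1 value cannot go below p = 0.333.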

Other observations

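FGF19, FGF4 and FGF3 lie next to each other on chromosome 11, in a run of 5 coding genes with CCND1 and LTO1 (GRCh37, 69455924 to 69634184, 178 kb). This run was picked after its values were seen. CCND1 was lower with CBL0137, at a log2 change of -1.06 (SE 0.05, edgeR adjusted p = 1.6e-20). LTO1, which overlaps the end of CCND1 on the other strand, had 54.6 and 50.7 CPM with CBL0137 and 57.8 and 51.9 CPM with DMSO and was not called (-0.06, SE 0.07). FGF19 and FGF3 were higher (0.73 and 1.86), and FGF4 had 11 and 3 reads with CBL0137 and 0 with DMSO. Neighbouring genes of this run thus moved in both directions.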
